A study of Mus musculus with 6 samples.

Results

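The adrenomedullin system comprised 6 genes, taken by symbol from the 55401 genes in the count table: the ligands Adm and Adm2, the receptor Calcrl and the receptor partners Ramp1, Ramp2 and Ramp3. They were measured by RNA-seq in sorted kidney endothelial cells (ECs, CD31+CD45-) of 3 control (CTRL) and 3 RbpjΔEC male mice of a B6 line, with 1 library per mouse. CTRL mice were Cre -/-; Rbpjf/f littermates and RbpjΔEC mice were Cre +/-; Rbpjf/f, so both groups carried the floxed alleles. Both groups received tamoxifen as 5 intraperitoneal doses of 1.5 mg at 8 weeks of age, and kidneys were taken 12 weeks later, with an age of 21 weeks in the labels. The recombinase was Cdh5CreERT2, which is driven by an endothelial promoter and also acts in lymphatic ECs. No group carried Cre without the floxed alleles, so effects of Cre with tamoxifen and of the Rbpj deletion cannot be told apart. The question addressed here was whether transcripts of the adrenomedullin system differed between the EC libraries of the 2 genotypes.

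Adrenomedullin is a secreted peptide that relaxes vessels and tightens the endothelial barrier, and its signaling is needed for blood and lymphatic vessel development. Its receptor is the G protein-coupled receptor encoded by Calcrl, which reaches the cell surface and gains its ligand preference only with a receptor activity-modifying protein (Ramp). With Ramp2 or Ramp3 it forms the adrenomedullin receptors, and with Ramp1 the receptor for calcitonin gene-related peptide; the signal runs mainly through Gs and cyclic AMP. Adm transcription is known to be induced by hypoxia, and Rbpj is the DNA-binding factor of Notch signaling.

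The 6 libraries held between 39649171 and 47726850 counts, and 3 counts corresponded to between 0.0634 and 0.0749 normalised CPM (counts scaled to a common library size). CTRL 1 stood apart in the number of genes detected, which was 33764, while the remaining libraries had between 25629 and 26785. Rbpj was at 28.1, 29.7 and 29.8 CPM in CTRL and at 28.9, 26.1 and 29.6 CPM in RbpjΔEC (log2 fold change -0.05, adjusted p = 0.793), so the counts, which cover the whole gene, did not separate the genotypes and do not check the deletion. Throughout, RbpjΔEC therefore means the libraries labelled so. Outside these counts, the paper reports recombination of the Rbpj locus and lower Hey1 in this mouse model. Of the Notch genes looked at, the signaling component Jag1 fell by 0.54 on the log2 scale (adjusted p = 0.0368, edgeR). The Notch target Hey1 was at -0.76 and did not pass the test (adjusted p = 0.0722, edgeR). For both genes every RbpjΔEC library lay below every CTRL library, beside 11.6% of all tested genes. The paper, which used DESeq2, reports both as downregulated in RbpjΔEC ECs. The EC label was borne out by 12 pan-endothelial genes, which summed to between 19905 and 24068 CPM over the libraries, while the T cell genes Cd3e and Cd3d were at 0 in all of them.

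Of the 6 genes, 4 had enough counts to be tested (Calcrl, Ramp2, Ramp3 and Adm), and the low-count filter left out Adm2 and Ramp1. With edgeR's quasi-likelihood test and Benjamini-Hochberg adjustment over 18438 genes, 0 of the 4 passed an adjusted p of 0.05, beside 1.13% of all tested genes. Calcrl alone had an unadjusted p under 0.05, on the lower side, beside 17.5% of all tested genes (8.62% lower, 8.88% higher), and DESeq2 and limma-voom also called 0 of the 4. For none of the 4 did the CTRL and RbpjΔEC ranges separate, beside 23.0% of all tested genes. The fitted change was below 0 for 3 genes and above 0 for Adm, with a median of -0.14 against 0.01 over all tested genes.

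Upstream sequence is shown for Adm and Ramp3, the 2 promoters that held a hypoxia response motif, since Adm is known as a hypoxia target and its promoter also held the core motif of Rbpj. The sequences are from RefSeq (GRCm38.p6), 5′ to 3′ on the gene's strand, ending before the gene's annotated start. The Adm stretch is chr7:110627407-110627656 (plus strand) and ends at the base before the RefSeq start. The Ramp3 stretch is chr11:6658283-6658520 (plus strand) and ends at the base before the GENCODE M21 gene, 12 bases short of the RefSeq start from which positions are counted. Capitals mark the matches.
Adm: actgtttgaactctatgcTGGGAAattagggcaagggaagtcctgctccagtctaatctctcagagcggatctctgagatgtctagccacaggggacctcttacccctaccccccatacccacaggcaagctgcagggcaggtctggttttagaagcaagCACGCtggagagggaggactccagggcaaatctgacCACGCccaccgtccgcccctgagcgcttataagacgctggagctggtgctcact
Ramp3: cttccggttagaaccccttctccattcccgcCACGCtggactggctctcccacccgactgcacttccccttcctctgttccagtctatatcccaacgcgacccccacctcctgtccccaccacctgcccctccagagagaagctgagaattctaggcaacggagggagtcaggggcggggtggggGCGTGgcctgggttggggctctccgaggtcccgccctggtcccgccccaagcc
A promoter was at hand for 5 of the 6 genes, Ramp2 being the other one, and the 250 bases before each RefSeq start were searched on both strands. The Rbpj core TGGGAA was found in Adm, at 232 to 227 bases before the start, and also in Adm2 and Ramp1, which makes 3 of 5 promoters against 21.6% of 32851 promoters of the same length. The hypoxia response cores ACGTG and GCGTG were searched together, and only GCGTG or its reverse complement CACGC was found. Adm held it at 90 to 86 and at 54 to 50 bases before the start, both on the opposite strand. Ramp3 held it at 219 to 215 bases before the start on the opposite strand and at 65 to 61 on the printed strand. The 2 of 5 promoters with this motif compare with 38.6% of all promoters, and Calcrl held neither motif. These matches describe the letters only.

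Adm, the ligand, lies at chr7:110627661-110629820 on the plus strand (GRCm38, GENCODE M21). It was at 6.68, 8.60 and 6.35 CPM in CTRL and at 6.80, 17.9 and 9.03 CPM in RbpjΔEC. RbpjΔEC 2 stood far above every other library, RbpjΔEC 3 was slightly above the CTRL range and RbpjΔEC 1 was inside it. The underlying counts were 268, 407 and 268 in CTRL and 305, 749 and 362 in RbpjΔEC. Means were 7.21 ± 1.21 and 11.2 ± 5.84 CPM (SD, n = 3), giving a log2 fold change of 0.64 (SE 0.36, 95% interval -0.24 to 1.51, adjusted p = 0.424, edgeR). Without RbpjΔEC 2 the log2 fold change was 0.13 (adjusted p = 0.788). The SD was 16.8% of the mean in CTRL and 52.0% in RbpjΔEC, while counting error alone came to between 3.65% and 6.11% per library. The antisense gene Gm28863 overlaps Adm without sharing exonic bases and had between 0 and 3 counts.

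RbpjΔEC 2 was the highest library for other genes too, of which 3 are given because it stood well above the rest, chosen after their values were seen. The scavenging receptor gene Gpr182 was also highest there, by little (61.6 CPM against at most 58.9). Ackr3, a scavenger receptor that binds adrenomedullin, was at 10.3 CPM in that library and between 5.11 and 6.24 CPM in the other 5. The potassium channel subunit genes Kcnj8 and Abcc9, both in a list of mural (smooth muscle and pericyte) markers, were at 30.3 and 40.5 CPM there. The other mural genes did not share this, since RbpjΔEC 2 was the lowest of the 6 libraries for 8 of the 12, among them Acta2 (2.57 CPM) and Myh11 (9.85 CPM). Kcnj8 was at 18.6 and 14.3 CPM in the other RbpjΔEC libraries and at most 12.3 CPM in CTRL. Abcc9 was at 18.9 and 17.2 CPM in the other RbpjΔEC libraries and at most 16.5 CPM in CTRL. For both genes every RbpjΔEC library lay above every CTRL library, beside 11.4% of all tested genes. The part of this library's makeup in the Adm value was not tested.

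Adm2, which encodes the related ligand intermedin, lies at chr15:89322720-89324731 on the plus strand. It had 1, 2 and 0 counts in CTRL and 0, 0 and 3 counts in RbpjΔEC, at or under the 3-count floor in every library, so no fold was computed.

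Calcrl, the receptor, lies at chr2:84330626-84425411 on the minus strand. It was at 707, 720 and 800 CPM in CTRL and at 629, 713 and 624 CPM in RbpjΔEC. RbpjΔEC 1 and RbpjΔEC 3 lay below all CTRL libraries, and RbpjΔEC 2 lay inside the CTRL range. Means were 742 ± 50.6 and 655 ± 50.0 CPM (SD, n = 3), a log2 fold change of -0.18 (SE 0.08, 95% interval -0.36 to -0.003). The unadjusted p was 0.0471 and the adjusted p 0.276 (edgeR), so the difference did not pass the test. Leaving out single libraries moved the log2 fold change between -0.24 and -0.12. In bulk samples, fewer cells of a type and less RNA per cell cannot be told apart.

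Pan-endothelial genes are given beside Calcrl as a measure of EC transcripts in general. The 12 genes, which include Pecam1, Cdh5 and Kdr, summed to between 21946 and 24068 CPM in CTRL and between 19905 and 20209 CPM in RbpjΔEC. None of the 12 passed the test, 4 were lower and 1 was higher without adjustment at p under 0.05 (8.62% and 8.88% of all tested genes), 9 had a fitted change below 0 and 3 above, and their median log2 fold change was -0.18. Their sums did not follow Calcrl library by library: RbpjΔEC 2 summed to 20033 CPM, as low as its group, while its Calcrl level lay inside the CTRL range. Set against these genes within each library, a ratio chosen after the data were seen, Calcrl was at 29.8, 32.8 and 33.2 counts per 1000 pan-endothelial counts in CTRL. In RbpjΔEC it was at 31.1, 35.6 and 31.3 counts per 1000, within or above the CTRL range. Means were 31.9 ± 1.90 and 32.7 ± 2.51 (SD, n = 3), a log2 difference of 0.03 (exact permutation test, two-sided, p = 0.7), where 3 against 3 libraries cannot give a p below 0.1. The log2 difference turned to -0.02 without CTRL 1 and to -0.03 without RbpjΔEC 2. Of the lymphatic markers, which mark cells known to depend on this receptor, the sum was between 633 and 737 CPM in CTRL and between 655 and 689 CPM in RbpjΔEC. Nearly all of it came from Flt4, whereas Lyve1 had means of 1.25 and 0.547 CPM, Ccl21a of 2.39 and 0.858 CPM and Prox1 of 9.0 and 10.1 CPM in CTRL and RbpjΔEC. Every RbpjΔEC library lay below every CTRL library for Lyve1, Ccl21a and Mmrn1 (11.6% of all tested genes lay so). For Prox1 every RbpjΔEC library lay above every CTRL library (11.4% of all tested genes). None of these genes passed the test. Mmrn1 had means of 21.8 and 9.77 CPM and Reln of 15.1 and 9.19 CPM in CTRL and RbpjΔEC. Of the 6 tested lymphatic genes, 0 passed the test, 4 were lower at an unadjusted p under 0.05 (8.62% of all tested genes were), and the median log2 fold change was -0.94.

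Ramp2, the partner that makes the main adrenomedullin receptor, lies at chr11:101246028-101259546 on the plus strand. It was at 162, 150 and 144 CPM in CTRL and at 137, 154 and 114 CPM in RbpjΔEC. RbpjΔEC 3 was the lowest library, and RbpjΔEC 2 lay inside the CTRL range. Means were 152 ± 8.78 and 135 ± 20.2 CPM (SD, n = 3), a log2 fold change of -0.17 (SE 0.10, 95% interval -0.39 to 0.05, adjusted p = 0.412, edgeR). The log2 fold change was -0.06 without RbpjΔEC 3 and -0.27 without RbpjΔEC 2.

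Ramp2 shares 1103 of its 3301 exonic bases with Vps25, a same-strand gene of the endosomal sorting machinery at chr11:101253707-101259549, and reads on these bases cannot be assigned to either gene from the counts. Vps25 was noticed after its values were seen. Its counts were 28, 58 and 23 in CTRL and 85, 76 and 81 in RbpjΔEC. Every RbpjΔEC library lay above every CTRL library, beside 11.4% of all tested genes. Its log2 fold change was 1.20 (adjusted p = 0.107, edgeR), which did not pass the test.

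Ramp3, the partner of the second adrenomedullin receptor, lies at chr11:6658521-6677475 on the plus strand. It was at 87.8, 71.6 and 74.0 CPM in CTRL and at 75.3, 73.4 and 68.5 CPM in RbpjΔEC. CTRL 1 was the highest library, and the other 5 lay close together. Means were 77.8 ± 8.76 and 72.4 ± 3.53 CPM (SD, n = 3), a log2 fold change of -0.10 (SE 0.09, 95% interval -0.29 to 0.09, adjusted p = 0.575, edgeR). Without CTRL 1 it was -0.012. Ramp3 shares 101 exonic bases with the pseudogene Gm11978 on the opposite strand, which had between 66 and 86 counts per library.

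Ramp1, the partner for calcitonin gene-related peptide, lies at chr1:91179822-91225196 on the plus strand. It had 16, 5 and 0 counts in CTRL and 9, 5 and 1 counts in RbpjΔEC. The counts differed more within the groups than between them, and the highest came from CTRL 1, the library with the most genes detected.

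**Figure D1:**
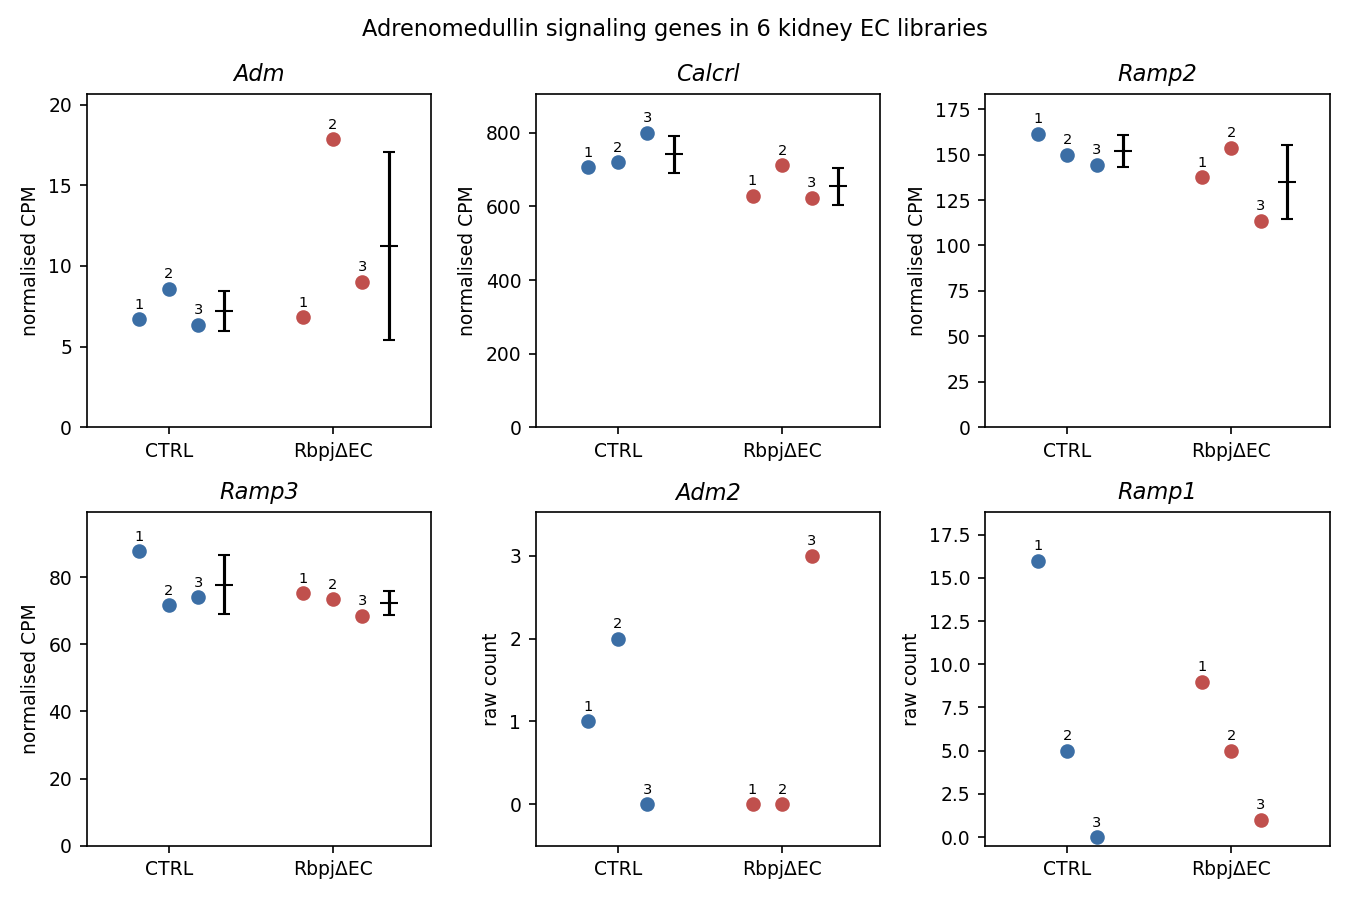
Levels of the 6 genes in each library, in TMM-normalised CPM for Adm, Calcrl, Ramp2 and Ramp3 and in raw counts for Adm2 and Ramp1. Points are libraries with their replicate numbers, and bars are the mean ± SD of 3 libraries; the groups overlap for every gene, and Adm in RbpjΔEC 2, at 17.9 CPM, lies well above the other 5 points of its panel.

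Per kilobase of exon, Calcrl was the highest of the 4 tested genes, at 152 ± 10.4 CPM per kilobase in CTRL and 134 ± 10.2 in RbpjΔEC (SD, n = 3). It ranked 136th of 18411 tested genes with a known length, between the pan-endothelial genes Tie1 (91st) and Esam (156th). Adm was the lowest, at 4.45 ± 0.75 CPM per kilobase in CTRL and 6.94 ± 3.61 in RbpjΔEC, and ranked 6477th.

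The order of Ramp2 and Ramp3 depended on the length used. Over all exonic bases, Ramp3 was at 56.4 ± 6.35 CPM per kilobase in CTRL and Ramp2 at 46.0 ± 2.66, and over the 6 libraries the ranges did not overlap. Over the exonic bases that Ramp2 does not share with Vps25, Ramp2 was the higher, at 69.1 ± 4.0 CPM per kilobase in CTRL. Over the principal transcript, Ramp2 was at 129 ± 7.45 and Ramp3 at 63.1 ± 7.10 CPM per kilobase in CTRL. The latter 2 lengths were added after the data were seen. With the principal transcript the highest Ramp2 library (137 CPM per kilobase) also reached into the Calcrl range (128 to 164). Over coding bases the ranges of Ramp2 (142 to 202) and Ramp3 (155 to 199) overlapped.

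**Figure D2:**
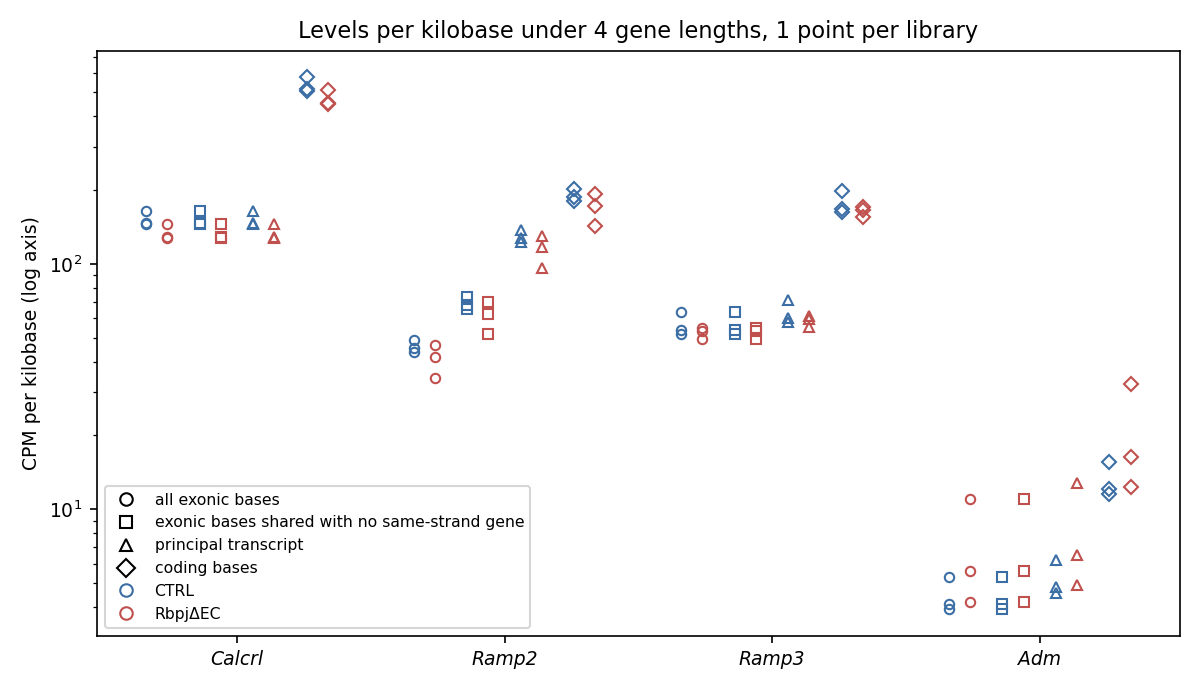
CPM per kilobase on a log axis for Calcrl, Ramp2, Ramp3 and Adm, with 1 point per library and a symbol for each of 4 gene lengths; blue is CTRL and red is RbpjΔEC. Calcrl stayed above Ramp3, and Adm stayed lowest, under each of the 4 lengths, whereas Ramp2 moved from 46.0 to 129 CPM per kilobase (CTRL mean) between all exonic bases and the principal transcript.

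Ratios between the genes within a library, which do not depend on library scaling, were compared next. Ramp3 made up 54.9 ± 1.58% of the summed Ramp level per kilobase of exon in CTRL and 56.3 ± 2.88% in RbpjΔEC (SD, n = 3), and the groups did not separate (exact permutation test, two-sided, p = 0.5). The summed Ramp level per kilobase was 0.678 ± 0.0935 of that of Calcrl in CTRL and 0.696 ± 0.0457 in RbpjΔEC (exact permutation test, two-sided, p = 0.9). Both values depended on the length used: over the principal transcript the Ramp3 share was 32.8% in CTRL and 34.1% in RbpjΔEC, and the summed Ramp level was 1.27 and 1.29 of that of Calcrl. In CTRL the ratio per kilobase of exon ran from 0.594 in CTRL 3 to 0.778 in CTRL 1, a span that held all 3 RbpjΔEC values. Adm to Calcrl was 0.0285, 0.0360 and 0.0239 in CTRL and 0.0326, 0.0755 and 0.0437 in RbpjΔEC. The log2 difference of this ratio was 0.71 (exact permutation test, two-sided, p = 0.2), and leaving out single libraries moved it between 0.38 and 0.98, the lowest being without RbpjΔEC 2.

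**Figure D3:**
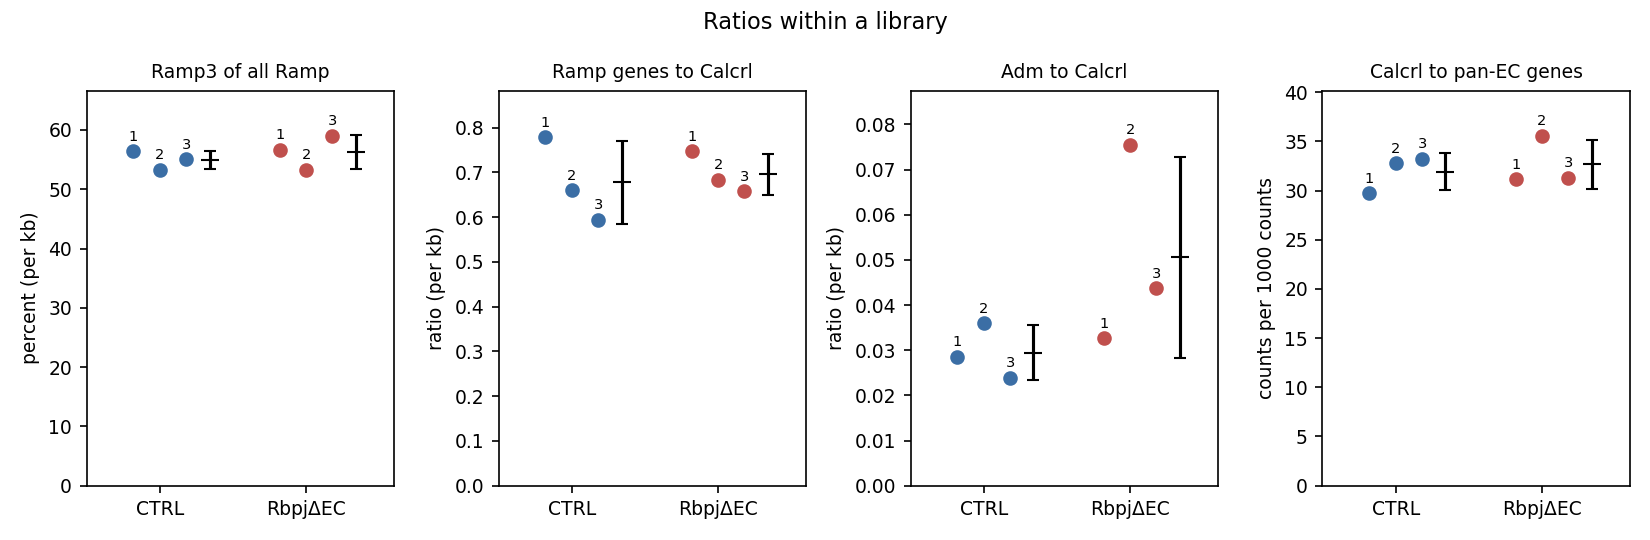
Within-library ratios from left to right: Ramp3 as a percent of the summed Ramp level per kilobase, the summed Ramp level over Calcrl, Adm over Calcrl, and Calcrl counts per 1000 counts on the 12 pan-endothelial genes. Points are libraries with their replicate numbers and bars are the mean ± SD of 3 libraries; CTRL and RbpjΔEC overlap in every panel, with RbpjΔEC 2 highest for Adm over Calcrl at 0.0755.

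The 4 tested genes did not rise and fall as 1 block over the 6 libraries. Pearson's r was 0.69 for Ramp2 with Ramp3, 0.62 for Calcrl with Ramp2 and 0.20 for Calcrl with Ramp3. For Adm it was -0.06 with Calcrl, 0.07 with Ramp2 and -0.35 with Ramp3. Spearman's rho, on which the single high Adm library weighs less, was -0.37, -0.09 and -0.66 for the same pairs of Adm, and 0.49, 0.43 and 0.09 for the receptor pairs in the order given. Among 10442 genes with a mean of at least 5 CPM, the 3 with the highest r to each gene were Pias4 (0.986), Cebpz (0.967) and Gm11131 (0.965) for Adm, and Morc4 (0.995), Frk (0.992) and Mfap1b (0.992) for Calcrl. For Ramp2 they were Unc5b (0.999), Col4a5 (0.987) and Tm9sf4 (0.985), and for Ramp3 they were Ccdc166 (0.988), Rgmb (0.986) and Txnrd1 (0.986). Unc5b, an endothelial netrin receptor gene, was at 153, 142 and 139 CPM in CTRL and at 132, 145 and 109 CPM in RbpjΔEC, with the libraries in the same order as for Ramp2. These are descriptions over 6 points that share libraries and scaling, picked as the highest of many.

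Other genes of the ligand family and of peptide processing and clearance were described as a list of 11, of which 8 were tested. One of the 8, Pam, passed the test and was lower in RbpjΔEC, beside 0.559% of all tested genes called lower; 4 of the 8 were lower at an unadjusted p under 0.05, beside 8.62% of all, and the median log2 fold change was -0.29. Pam encodes the enzyme that amidates the C terminus of adrenomedullin and other peptides, a step they need for activity. It was at 142, 137 and 150 CPM in CTRL and at 101, 117 and 105 CPM in RbpjΔEC. The groups did not overlap, beside 11.6% of all tested genes on the lower side. The log2 fold change was -0.42 (SE 0.08, adjusted p = 0.0281, edgeR). The adjusted p rose to 0.0903 without CTRL 1, 0.135 without CTRL 3 and 0.154 without RbpjΔEC 1.

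None of the other tested genes of this list passed the test. Among them were the insulin-degrading enzyme gene Ide at -0.40 (adjusted p = 0.112, edgeR) and the neprilysin gene Mme at -0.90 (adjusted p = 0.257), which was -0.54 without RbpjΔEC 2 and -1.32 without RbpjΔEC 3. Gpr182, an endothelial scavenging receptor, was at 54.6 ± 6.56 CPM in CTRL and 50.5 ± 11.02 CPM in RbpjΔEC (SD, n = 3). Calca, which encodes calcitonin and calcitonin gene-related peptide, was at 7.11 ± 2.77 and 7.31 ± 1.57 CPM. Iapp was at 0 in every library, and Calcb and Calcr were under the filter.

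Downstream of the receptor, all 22 genes of a Gs and cyclic AMP list were tested. One, Pde3a, passed the test and was lower in RbpjΔEC, against 0.559% of all tested genes. Without adjustment 4 of this list were lower at p under 0.05, against 8.62% of all tested genes, and the median log2 fold change was -0.10. Pde3a, a phosphodiesterase that breaks down cyclic AMP, was at 25.4, 33.3 and 30.7 CPM in CTRL and at 13.5, 13.8 and 19.0 CPM in RbpjΔEC. Every RbpjΔEC library lay below every CTRL library, beside 11.6% of all tested genes. The log2 fold change was -0.95 (SE 0.15, adjusted p = 0.0193, edgeR). The adjusted p rose to 0.0959 without CTRL 3, 0.0900 without RbpjΔEC 1 and 0.0823 without RbpjΔEC 2.

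The next 3 by p did not pass the test. They were the beta-arrestin gene Arrb1 at -0.26 (adjusted p = 0.125, edgeR), the protein kinase A subunit gene Prkar1a at -0.20 (adjusted p = 0.177) and the adenylyl cyclase gene Adcy4 at -0.23 (adjusted p = 0.257). Gnas, which encodes the Gs alpha subunit, was at 1206 ± 99.3 CPM in CTRL and 1096 ± 129 CPM in RbpjΔEC (SD, n = 3).

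Smooth muscle cells also express Pde3a. Of 12 mural genes 11 were tested and 3 were called lower (Acta2, Myh11 and Rgs5), against 0.559% of all tested genes, and 8 were lower without adjustment at p under 0.05, against 8.62%. Kcnj8 and Abcc9 were at 0.93 and 1.03 without passing the test, the median log2 fold change was -1.08, and 0 of the 12 were at 0 in every library. Their summed level was between 111 and 146 CPM in CTRL and between 84.0 and 107 CPM in RbpjΔEC. The 7 stromal genes, of which 4 were tested and 1, Pdgfra, was called lower (0.559% of all tested genes were), summed to between 5.07 and 7.36 CPM in CTRL and between 1.54 and 3.47 CPM in RbpjΔEC. Their part in the Pde3a and Pam results was not tested.

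Because Adm is a hypoxia target, 18 genes of the hypoxia pathway were examined, of which 17 were tested. None passed the test in edgeR, and those with an unadjusted p under 0.05 were 4, all below CTRL (8.62% of all tested genes were); the median log2 fold change was -0.08. DESeq2 called 1, Epas1. Epas1, the endothelial hypoxia-inducible factor, was at 3235, 3103 and 3574 CPM in CTRL and at 2549, 2661 and 2981 CPM in RbpjΔEC. The groups did not overlap, beside 11.6% of all tested genes on the lower side (log2 fold change -0.28, adjusted p = 0.138, edgeR). The targets Ndrg1, Bnip3 and Vegfa were at -0.30, -0.43 and -0.27 (adjusted p = 0.163, 0.232 and 0.244). Over the 17 tested genes the fitted change was below 0 for 10 and above 0 for 7. The targets Egln3 and Ankrd37, named after their values were seen, were among the latter, at 0.71 and 0.44, and did not pass the test. The Egln3 value rested on RbpjΔEC 1 at 121 CPM, with 55.9 and 46.9 CPM in the other RbpjΔEC libraries and 52.7, 33.0 and 51.1 CPM in CTRL.

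**Figure D4:**
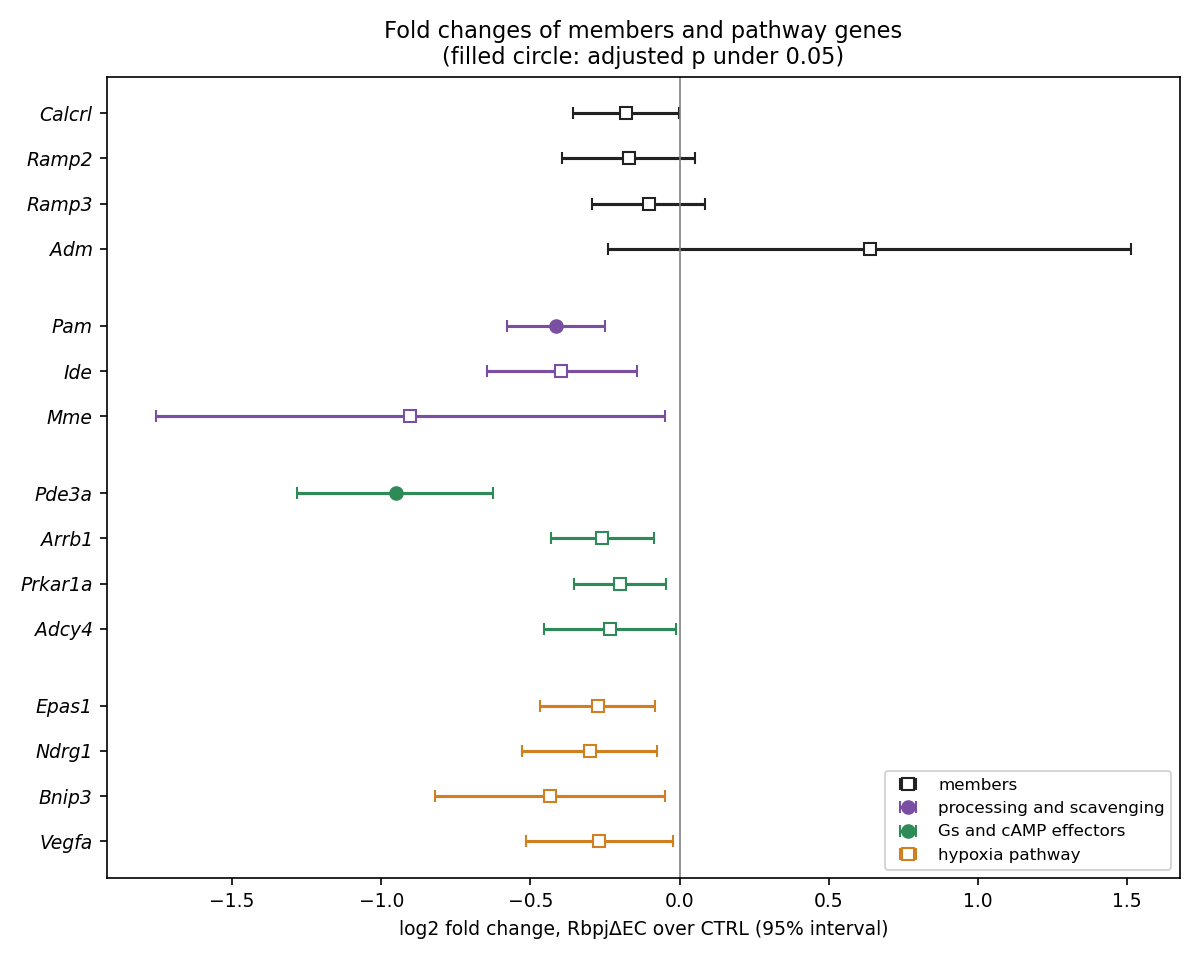
Log2 fold changes (RbpjΔEC over CTRL, 3 libraries each) with 95% intervals for the 4 tested adrenomedullin genes and for genes of the 3 pathway lists, 3 from the processing and clearance list and 4 from each of the other lists, taken from those of smallest p. Filled circles passed an adjusted p of 0.05 and open squares did not; Pam (-0.42) and Pde3a (-0.95) are the filled ones, and Adm (0.64) has the widest interval of the 4 adrenomedullin genes.

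Other cell types that the sort could hold were followed by 4 further marker lists. Tubule genes summed to between 521 and 619 CPM in CTRL and between 282 and 542 CPM in RbpjΔEC, with 0 of 8 called (1.13% of all tested genes were) and 2 lower without adjustment at p under 0.05, Umod and Aqp2 (8.62% of all), but the genes did not go one way. RbpjΔEC 3, the library lowest for Calcrl, Ramp2 and Ramp3, was the highest for the proximal tubule genes Lrp2 (129 CPM, at most 40.4 in the others), Slc34a1 (73.5 CPM, at most 21.9) and Cubn (21.9 CPM, at most 7.56). Aqp1, which the proximal tubule also expresses, made up the largest part of the sum. It was at 159.9 CPM in RbpjΔEC 3, below all CTRL libraries (170, 244 and 343 CPM). Its fitted change of -0.67 (log2) did not pass the test. Whether the Aqp1 reads came from tubule cells or from ECs was not tested. The fitted change of the distal genes Slc12a1, Slc12a3, Umod and Aqp2 was between -2.77 and -1.19, without passing the test. Podocyte genes, mostly Podxl, which ECs also express, summed to between 3185 and 3564 CPM in CTRL and between 2591 and 2859 CPM in RbpjΔEC. Of these 0 of 5 were called (1.13% of all tested genes were), and 1, Podxl, was lower without adjustment at p under 0.05 (8.62% of all). Every RbpjΔEC library lay below every CTRL library for Podxl, beside 11.6% of all tested genes. Macrophage genes summed to between 15.3 and 18.6 CPM in CTRL and between 24.1 and 29.4 CPM in RbpjΔEC, and this difference came from Cd68, the 1 of 5 tested that was called higher (0.575% of all tested genes were). The other 4 tested had a fitted change below 0 without passing the test, and the median of the list was -1.25. Of these, 2 (Csf1r and Ptprc) were lower at an unadjusted p under 0.05 (8.62% of all tested genes were). B and T cell genes summed to at most 0.829 CPM. The part of these cells in the levels of Adm, Calcrl, Ramp2 and Ramp3 was not tested.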

How the data were processed

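Kidney ECs were sorted from 6 mice, and 1 stranded total RNA library per mouse was sequenced in a common run. The authors aligned reads to GRCm38 with STAR 2.6.1d after Trim Galore 0.6.4 and counted genes of GENCODE M25 with featureCounts (Subread 1.6.4); the strand setting of the counting is not given in the sources used here. The deposited values are raw counts per gene without normalization; rows without a gene name numbered 0. Groups came from the sample labels, and p-values measure the spread between mice.

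From the counts, TMM factors, CPM and edgeR 4.0.16 quasi-likelihood tests (filterByExpr, robust, R 4.3.3) were computed, adjusted over 18438 genes; a call is an adjusted p under 0.05. DESeq2 1.42.0, limma 3.58.1 voom, other filters and scalings, the replicate block and each library left out were the alternatives. Ratios were tested by exact permutation. The test was checked on simulated counts. Lengths and positions are from GENCODE M21 and may differ from M25. Likeness is Pearson's r of log2 CPM.

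The genes and lists were chosen with earlier results of these data known. Named were all 6 genes, the 4 smallest p and every call in each pathway list, the 3 most alike genes per tested gene, Rbpj, Hey1 and Jag1, and markers; 1 gene that this rule names is not reported here.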

Additional observations from a re-analysis of the deposited data

How the results depend on the processing

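None of the 13 alternatives called Adm, Calcrl, Ramp2 or Ramp3 or turned the sign of its change. The adjusted p ran from 0.108 to 0.788 for Adm, 0.212 to 0.599 for Calcrl, 0.221 to 0.772 for Ramp2 and 0.319 to 0.973 for Ramp3. The count of genes called depended on the processing. It was 209 (106 higher, 103 lower), and became 1436 without the low-count filter, 944 with DESeq2 and 344 with the replicate block. Leaving out single libraries gave from 21 (without RbpjΔEC 1) to 700 (without CTRL 2), with 54 without CTRL 1, 24 without CTRL 3, 48 without RbpjΔEC 2 and 521 without RbpjΔEC 3. Scaling by library size alone gave 159 higher and 82 lower. The causes were not tested.

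The processing and clearance list had 1 gene called, 3 without the filter and from 0 to 1 with single libraries left out. The Gs and cyclic AMP list had 1, 2 without the filter and from 0 to 1 with single libraries left out. The hypoxia list had 0, 2 without the filter, 1 with DESeq2 and from 0 to 1 with single libraries left out, the 1 being Ndrg1 without RbpjΔEC 3 (adjusted p = 0.0427). Pam and Pde3a lost their calls only as given beside their values. The log2 difference of the summed Ramp level over Calcrl was 0.046. It turned to -0.045 without CTRL 3 and to -0.006 without RbpjΔEC 1, and was at most 0.151 (without CTRL 1). That of Calcrl over the pan-endothelial genes was 0.033, turned to -0.017 without CTRL 1 and to -0.03 without RbpjΔEC 2, and was at most 0.066 (without RbpjΔEC 1).

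The replicate numbers are shared between the groups. The deviations of same-numbered libraries had correlations of 0.023, 0.009 and 0.005, and 0 of 6 libraries correlated best with its own number. With 3 libraries per group this cannot exclude a pairing, and the block raised the genes called from 209 to 344. The block left the 4 adrenomedullin genes uncalled, with adjusted p from 0.195 (Adm) to 0.606 (Ramp3).

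Adm2 and Ramp1 had too few counts for the main test, and no fold is given for them. With 3 mice per group, intervals of the 4 tested genes leave changes of the printed sizes undecided, and the exact tests cannot go below p = 0.1.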
